A study of Mus musculus with 6 samples.

Results

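Solute carriers are the membrane proteins that move amino acids, sugars, metals, ions and metabolites into, out of and within cells. Of 341 gene symbols named Slc, a family number, the letter a and a member number, 141 (41.3%) are described here. They were selected on their measured level alone, at least 5 FPKM (fragments scaled to exon length and to the size of the library) in at least 1 of 6 libraries, so that being expressed is not a finding about them. Of the other 200 symbols, 147 stayed under 1 FPKM in every library, and 35 of these were listed at 0 throughout.

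The libraries were made from stromal cells of the omentum of wild-type (WT) C57BL/6 mice, sorted to follow aldehyde dehydrogenase (ALDH) activity among fibroblastic reticular cells and their neighbors. P1 was CD45-CD140a+CD105+ with high ALDH activity, and P2 and P3 had the same surface markers with intermediate and low activity. P4 (intermediate activity) and P5 (low activity) were the CD105- counterparts, CD45-CD140a+CD105-, and P6 was CD45-, low for CD140a and positive for ALDH. Each population had 1 library, so there are no replicates, no difference below has a replicate check, and ratios describe these libraries only. Age, sex and the number of mice behind a library were not given in the sources used here.

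Carriers work by exchange, by cotransport down the sodium or proton gradient, or by facilitated diffusion, and several need an accessory protein to reach the plasma membrane. The family number groups carriers by sequence, and a family mostly, though not always, shares its substrates. In stromal cells they supply collagen synthesis with amino acids, balance zinc and other metals, and pass lactate and nucleosides between tissue fluid and cytoplasm.

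The part of all FPKM that fell on the 141 members was alike across libraries. Their summed level was 2852, 2976, 2976, 2899, 2914 and 2819 FPKM in P1 to P6, or 0.699% to 0.763% of each library's total. In single libraries 108 to 116 of the members reached 5 FPKM, and 86 did so in all 6. The members nearest above the limit were *Slc25a32* with 5.02 FPKM in its highest library, *Slc2a3* with 5.06 and *Slc38a11* with 5.08. Nearest below it were *Slc9a7* with 4.90, *Slc16a13* with 4.69 and *Slc4a7* with 4.64.

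By substrate class, set mainly by family number, the members were 30 mitochondrial carriers, 28 carriers of amino acids and their relatives, 22 of metal ions, 16 of inorganic ions, 9 of sugars and polyols, 9 of vitamins, nucleosides, choline and heme, 7 of the Golgi, endoplasmic reticulum and lysosome, 6 of fatty acids and sterols, 6 of organic ions, amines and peptides and 4 of monocarboxylates. The remaining 4 symbols carry such a name without being carriers. The amino acid class made up the largest sum in P1, P2 and P3, at 834 to 892 FPKM, and mitochondrial carriers did so in P4, P5 and P6, at 777 to 803 FPKM. Sums for the amino acid class were 834, 878, 892, 727, 736 and 527 FPKM in P1 to P6, lowest in P6. This ranking rested on *Slc43a3*, placed in the class by its family number though known as a carrier of purine bases, without which the class summed to 571, 606, 637, 562, 610 and 460 FPKM, below mitochondrial carriers in every library. Sums for mitochondrial carriers were 774, 783, 768, 803, 797 and 777 FPKM, level as deposited, whereas division by *Gapdh* put them 1.38 times higher in P2 and P3 than in P4 and P5. The lower sum of the amino acid class in P6 held under each scaling tried, at 0.588 to 0.672 times the mean of the other libraries, and less markedly without *Slc43a3*, at 0.707 to 0.798 times, a comparison added after seeing the data. It was not shared by the whole class, of whose 28 members 11 were lowest in P6 and 7 highest there. Abundant members weighed most in the sum, among them *Slc1a5*, with 104 FPKM in P6 and 137 to 231 elsewhere. Another was *Slc7a8*, with 6.47 FPKM in P6 and 38.99 to 70.2 elsewhere.

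**Figure D1:**
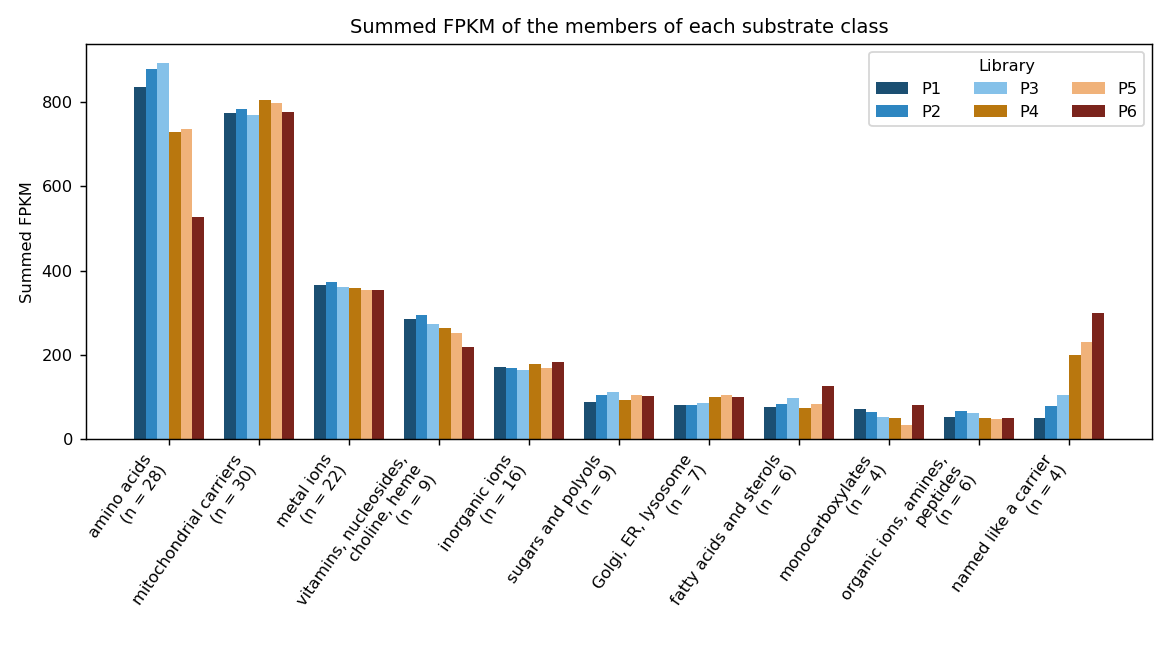
Bars give the FPKM summed over the members of each substrate class (vertical axis, FPKM) in the 6 libraries, with the number of members (n) under each class. The amino acid class, which includes *Slc43a3*, has its lowest sum in P6, 527 FPKM (460 without that gene), where 11 of its 28 members are lowest. Metal ion and mitochondrial carriers are level before rescaling (after division by *Gapdh* P2 and P3 are 1.46 and 1.38 times P4 and P5). The symbols named like a carrier climb from 50.4 FPKM in P1 to 300 in P6.

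Before the members are compared, the populations themselves were read from marker genes, since P6 and, to a lesser degree, P4 and P5 carried those of mesothelium, the cell layer that covers the omentum. Of 12 mesothelial markers 11 were listed, and they summed to 76.2, 97.7, 155, 1033, 834 and 3241 FPKM in P1 to P6, with *Upk3b* the most abundant and none at 0. In P6, 10 of the 11 were at least 2 times higher than in every other library, and 10 were at least 2 times lower in CD105+ than in CD105- cells at both ALDH levels. The fibroblast gene *Pdgfra*, which encodes CD140a, stood at 152, 154, 153, 119, 117 and 5.36 FPKM in P1 to P6, in the order of the gates. Sums over the 10 fibroblast markers were 14316, 11289, 11125, 11070, 9089 and 10332 FPKM, with *Dcn* the most abundant, and *Col3a1* was listed at 0 in P2 against 2100 to 3390 FPKM elsewhere. A value of 0 in these tables can therefore be a failed estimate, and genes at 0 are described as listed at 0.

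Genes of other cells followed the libraries as well. All 21 pancreatic acinar genes were listed, and they summed to 5.38, 288, 30.7, 1562, 181 and 2259 FPKM, with *Amy2a5* the most abundant and *Ctrc*, *Zg16* and *Spink1* (listed under its older symbol *Spink3*) at 0 in P1. Sums over 10 adipocyte genes were 71.02, 60.2, 58.7, 38.8, 29.1 and 405 FPKM, with *Car3* the most abundant, *Cfd* at 114 FPKM in P6 and *Lep* at 0 in all libraries but P3. Sums over 10 myeloid genes were 31.4, 52.9, 73.8, 36.2, 39.3 and 79.99 FPKM, with *Cd14* the most abundant and none at 0. Acinar genes were thus highest in P6 and P4 and lowest in P1, and adipocyte genes were highest in P6. The 10 endothelial genes summed to 1.96, 2.87, 4.39, 19.1, 11.9 and 113 FPKM, with *Esam* and *Kdr* carrying the P6 value, *Cldn5* at 0 in P4, and *Pecam1* and *Cdh5* under 1 FPKM in all 6. For 8 mural genes the sums were 12.6, 35.3, 76.3, 87.1, 140 and 82.4 FPKM, with *Myh11* the most abundant and none at 0. For the 8 listed of 10 lymphoid genes they were 5.53, 7.41, 2.42, 2.49, 1.45 and 3.79 FPKM, with *Cd79a* the most abundant and *Cd3e* at 0 in P1, P4 and P5. Lymphoid genes were thus low in all libraries, and the defining endothelial genes were near 0. The 5 listed of 6 erythroid genes summed to 66.2, 66.7, 211, 83.96, 132 and 246 FPKM, with *Hba-a1* the most abundant. In sorted bulk samples fewer cells of a type and less RNA per cell cannot be told apart, and the part of any of these genes' source cells in the carrier values was not tested.

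How far each member varied was read from the ratio of its highest to its lowest library, which had a median of 1.78 over the members and 1.54 over the 9790 genes of any kind that reach 5 FPKM. Of the 141 members, 59 (41.8%) had a ratio of at least 2, against 32.2% of all genes, while 11 (7.80%) reached at least 10, against 9.56%. By class the median was lowest in metal ion carriers, at 1.38, and mitochondrial carriers, at 1.42. It was highest in the 4 members of the monocarboxylate class, at 27.4, and in the amino acid class, at 4.20, where 22 of 28 had a ratio of at least 2.

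**Figure D2:**
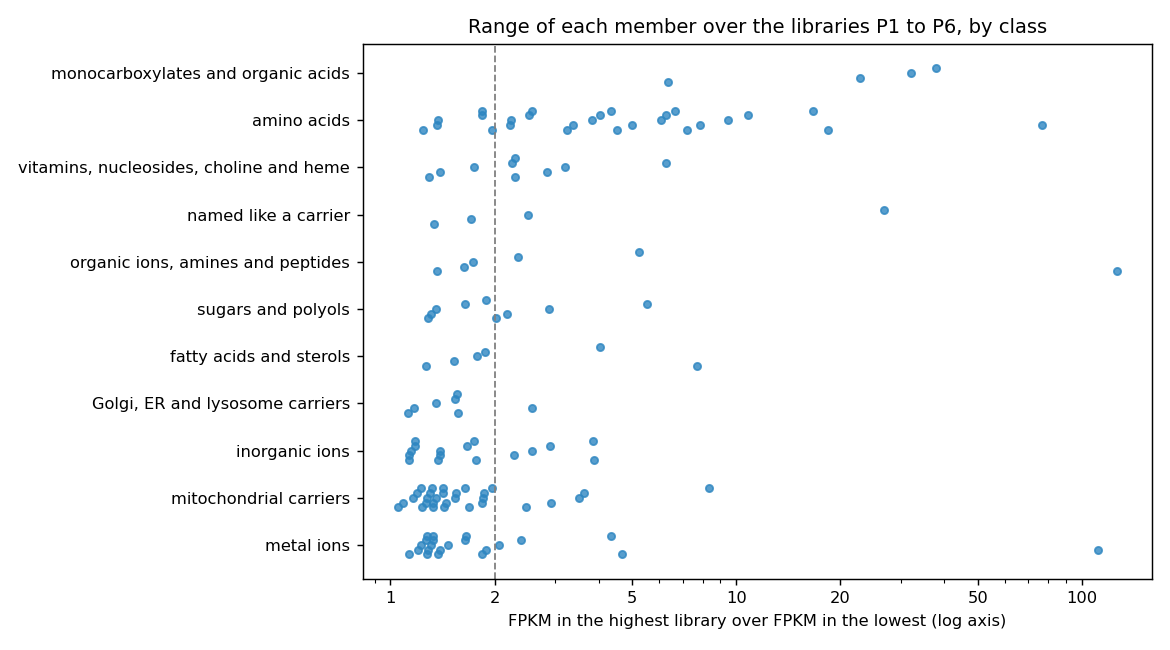
Each point is a member, placed by the ratio of its FPKM in the highest library to that in the lowest (horizontal log axis) and by class (vertical axis, points spread for visibility); the dashed line marks a ratio of 2, and *Slc38a11*, listed at 0 in P1 and P2, has no ratio and is left out. Metal ion and mitochondrial carriers crowd to the left of the line, whereas 21 of the 27 points of the amino acid class and all 4 of the monocarboxylate class lie at or beyond it.

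The members of the monocarboxylate class, all of family SLC16 though not all known to carry monocarboxylates, did not share a direction between P1 and P6. *Slc16a1* encodes MCT1, a proton-coupled carrier of lactate, pyruvate and ketone bodies, and measured 2.996, 3.91, 5.08, 14.96, 11.4 and 68.4 FPKM in P1 to P6. Its P6 value was 4.57 times that of P4, the next highest library. *Slc16a4*, an SLC16 gene whose substrate is not well defined, had 0.254, 0.318, 0.696, 5.14, 5.44 and 8.14 FPKM, likewise lowest in the CD105+ libraries and highest in P6. *Slc16a9*, a carrier of carnitine and creatine, had 23.7, 17.4, 14.004, 11.8, 6.68 and 3.72 FPKM, falling from P1 to P6 without a break. Its order also ran along the ALDH gates, being lower at low than at intermediate ALDH in both CD105+ and CD105- cells.

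**Figure D3:**
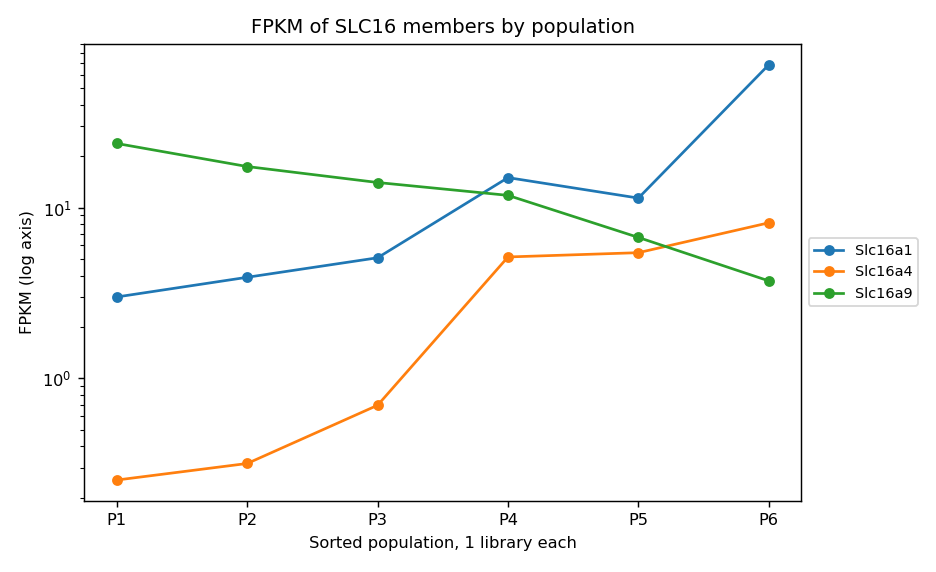
Points give FPKM (vertical log axis) of 3 SLC16 members in the populations P1 to P6 (horizontal axis, 1 library each), joined by lines for reading only. *Slc16a1* and *Slc16a4* are highest in P6, at 68.4 and 8.14 FPKM, and *Slc16a9* is highest in P1, at 23.7.

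The promoters of *Slc16a1* and *Slc16a4* are printed because both genes were lowest in the CD105+ libraries and highest in P6 while the bases around their starts differ. Both are RefSeq windows of 300 bases in GRCm38.p6 on the plus strand, the former at chr3:104638414-104638713 with 42 CpG and the latter at chr3:107290980-107291279 with 3. On both strands 11 motifs were searched, and the 2 marked in capitals here and below, like the promoters shown, were chosen after the values and the matches were seen. The marked motifs are TATAAA, the TATA box, present in 13.6% of all 32851 promoters of this length, and TGCACNC, a narrow form of the metal response element core, present in 12.6%. The open form of that core, TGCNCNC, which contains the narrow form, was present in 51.03%. The other motifs searched were CCAAT (37.4%), ACGTG (19.6%), GGAATG (14.7%), TGACNNNGC (12.4%), TGATGNAAN (3.95%) with its narrower form TGATGNAAT (0.965%), and by name the NRF1 motif (0.971%) and DR5, a direct repeat of the nuclear receptor half-site (in 3 promoters). *Slc16a4* held 2 overlapping matches of TATAAA, on opposite strands, and *Slc16a1* none of either marked motif. A match describes the letters of these windows and nothing else.
Slc16a1: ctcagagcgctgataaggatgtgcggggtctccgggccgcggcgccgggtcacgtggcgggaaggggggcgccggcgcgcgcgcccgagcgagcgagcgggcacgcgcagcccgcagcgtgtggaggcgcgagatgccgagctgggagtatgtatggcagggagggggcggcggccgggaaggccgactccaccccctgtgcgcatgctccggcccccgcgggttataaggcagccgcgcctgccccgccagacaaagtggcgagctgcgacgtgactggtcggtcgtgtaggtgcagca
Slc16a4: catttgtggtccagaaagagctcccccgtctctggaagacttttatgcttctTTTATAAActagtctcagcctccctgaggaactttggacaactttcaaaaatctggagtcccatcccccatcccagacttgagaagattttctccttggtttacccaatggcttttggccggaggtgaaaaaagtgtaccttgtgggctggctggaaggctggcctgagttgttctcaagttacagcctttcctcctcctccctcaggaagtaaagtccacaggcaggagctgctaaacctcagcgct

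The partners on which these carriers depend were measured too. *Bsg*, the chaperone that takes MCT1 to the plasma membrane, had 226, 228, 199, 214, 197.5 and 283 FPKM in P1 to P6 and was never more than 1.5 times apart between libraries. *Emb*, an alternative chaperone, had 2.84, 16.4, 11.7, 3.68, 3.83 and 34.5 FPKM and was highest in P6, as *Slc16a1* was. The sodium pump maintains the gradient that many carriers use, and its regulatory subunits were not level between libraries. For *Atp1b1*, P6 with 110 FPKM stood above 6.34 to 13.3 FPKM elsewhere. The others were *Atp1b2*, with 9.87, 25.6, 36.9, 42.96, 63.9 and 22.5 FPKM, and *Atp1b3*, with 76.01, 69.3, 73.7, 67.3, 76.01 and 43.5 FPKM. Of these 5 partners, 2 were at least 2 times higher in P6 than in every other library, against 4.63% of all genes with at least 5 FPKM, and none was lower.

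The amino acid class held the most abundant members of the plasma membrane. *Slc43a3*, the purine carrier in the class, had 263, 273, 255, 165, 127 and 67.5 FPKM. *Slc1a5* encodes ASCT2, an exchanger of glutamine and other neutral amino acids, and had 231, 206, 224, 162, 137 and 104 FPKM. Both were highest in the CD105+ libraries and lowest in P6. *Slc3a2* encodes the heavy chain that anchors the SLC7 light chains in the membrane, and had 64.1, 80.4, 85.8, 73.3, 95.98 and 52.3 FPKM, a ratio of 1.84 between P5 and P6.

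The light chains of family SLC7 that pair with *Slc3a2* were less even than their partner. *Slc7a8*, which encodes LAT2, an exchanger of neutral amino acids, had 38.99, 51.5, 58.1, 43.6, 70.2 and 6.47 FPKM and was lowest in P6, 6.03 times under P1, its next lowest library. *Slc7a10*, which encodes a carrier of small neutral amino acids such as serine, had 13.9, 18.1, 16.5, 6.54, 3.64 and 1.92 FPKM, with the CD105+ libraries above the rest, and its exons overlap those of *Lrp3* on the opposite strand. *Slc7a5*, which encodes LAT1, an exchanger of large neutral amino acids, had 1.10, 5.46, 3.94, 2.01, 2.13 and 3.66 FPKM, with P2 4.98 times P1. Among the light chains, *Slc7a5* thus had a lower FPKM than *Slc7a8* in every library.

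Carriers of the SLC7 family that act without the heavy chain also split by population. *Slc7a2* encodes CAT-2, a carrier of arginine, lysine and ornithine, and had 0.961, 14.96, 16.1, 3.78, 12.2 and 1.03 FPKM, near 1 in P1 and P6 and higher in the remaining libraries. The P2 value was 15.6 times that of P1, or 8.14 times with a pseudocount of 1. *Slc7a1* encodes CAT-1, the widely expressed carrier of the same cationic amino acids, and had 3.33, 3.54, 3.53, 6.86, 6.83 and 14.5 FPKM, highest in P6 at 2.11 times P4, and is named after its values were seen. *Slc7a4*, a relative of these genes, had 0.296, 0.454, 0.913, 4.52, 4.65 and 5.45 FPKM, lowest in the CD105+ libraries, and its exons overlap those of *P2rx6* on the opposite strand. P1 and P2 therefore had about the same *Slc7a1* while *Slc7a2* differed, and P6 had more *Slc7a1* than *Slc7a2*.

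**Figure D4:**
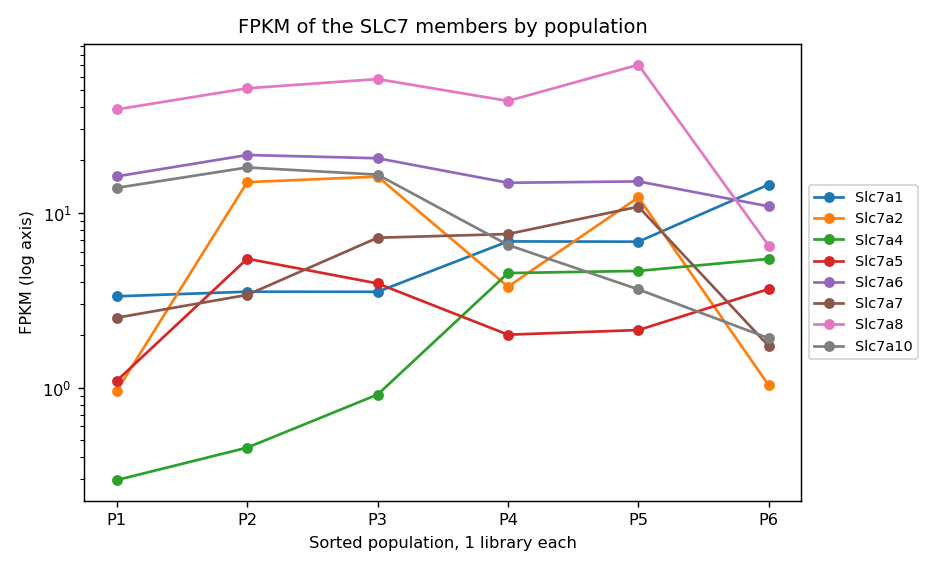
Points give FPKM (vertical log axis) of the 8 SLC7 members in the populations P1 to P6 (horizontal axis, 1 library each), joined by lines for reading only. *Slc7a2* lies near 1 FPKM in P1 and P6 and at 14.96 in P2, and *Slc7a8* drops from 70.2 FPKM in P5 to 6.47 in P6.

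Several other genes of the amino acid class were higher outside the CD105+ gates. *Slc38a1*, which encodes a carrier of glutamine, had 0.277, 0.439, 2.27, 5.67, 8.87 and 21.2 FPKM, the largest ratio in the class for which a ratio can be given, 76.5 between P6 and P1. *Slc38a11*, a less studied relative, was listed at 0 in P1 and P2 and had 0.0586 to 0.438 FPKM in P3 to P5 and 5.08 in P6. *Slc6a4*, the serotonin transporter, in the class by its family number only, had 1.87, 1.83, 1.88, 13.2, 12.8 and 10.9 FPKM, with P4, P5 and P6 all above P1, P2 and P3. *Slc6a6*, the taurine transporter, named after its values were seen, had 7.13, 7.84, 8.69, 16.8, 17.98 and 9.94 FPKM and was highest in P5. *Slc1a3*, *Slc36a2* and *Slc43a1* had other orders. *Slc1a3*, a glutamate transporter, had 1.05, 4.31, 6.34, 1.72, 5.58 and 3.39 FPKM, with P2 4.12 times P1. *Slc36a2*, a proton-coupled carrier of small amino acids, had 5.90, 3.86, 4.25, 1.61, 0.889 and 2.82 FPKM, highest in P1 and lowest in P5. *Slc43a1* and *Slc43a2* both encode carriers of large neutral amino acids such as leucine and had different orders. The former had 6.27, 7.15, 5.96, 3.07, 1.63 and 7.39 FPKM, lowest in the CD105- libraries. The latter had 2.01, 4.78, 7.68, 8.41, 15.8 and 13.4 FPKM, lowest in P1. As in the genes before *Slc1a3*, its values in P4, P5 and P6 all lay above those in P1, P2 and P3.

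The listed genes of the amino acid stress response, which are induced when amino acids run short, were given beside these carriers. They summed to 150, 157, 167, 148, 156 and 253 FPKM with *Atf4*, its transcription factor, the most abundant, and 2 of 8 (*Phgdh* and *Chac1*, the latter below 5 FPKM throughout) were at least 2 times higher in P6 than in every other library, against 4.63% of all genes with at least 5 FPKM. *Asns*, which makes asparagine, had 14.1, 9.94, 9.88, 6.56, 3.24 and 12.8 FPKM, so the highest value lay in P1 and the lowest in P5.

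Mitochondrial carriers, the SLC25 family and relatives, had, along with metal ion carriers, the lowest median ratio as deposited. They are mostly proteins of the inner membrane, but were grouped mainly by family number and not by known location. *Slc25a4*, an ADP/ATP exchanger, had 189, 189, 181, 191, 183 and 183 FPKM, and its ratio of 1.05 between highest and lowest library was the smallest of all members as deposited, whereas 13 members were flatter under the median of ratios and 33 after division by *Gapdh*. *Slc25a3*, the phosphate carrier, had 151, 150, 144, 168, 167 and 159 FPKM, a ratio of 1.17. *Slc25a5*, another ADP/ATP exchanger, had 72.4, 69.6, 66.7, 60.7, 58.7 and 42.8 FPKM and was lowest in P6, so that the exchangers were not kept in a fixed ratio, although genes this alike may share reads. *Slc25a32*, a carrier of folate or flavin, had 4.64, 5.02, 4.66, 4.62, 4.74 and 4.67 FPKM and a ratio of 1.09. By contrast *Slc25a45*, a family member of less settled function, had 6.09, 4.52, 5.43, 2.93, 2.28 and 0.729 FPKM, with P5 3.13 times P6, or 1.90 times with a pseudocount of 1. In 17 of the 30 mitochondrial carriers the ratio was under 1.5, against 46.9% of all genes. The 9 genes of the inner and outer membrane named otherwise, among them the pyruvate carrier subunits *Mpc1* and *Mpc2*, summed to 303, 275, 256, 290, 279 and 283 FPKM with *Mtch1* the most abundant, and 1 of 9 was at least 2 times lower in CD105+ than in CD105- cells, against 6.15% of all genes with at least 5 FPKM.

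Metal ion carriers were level in their sum, 367, 373, 362, 358, 355 and 354 FPKM in P1 to P6 as deposited, though 1.46 times higher in P2 and P3 than in P4 and P5 after division by *Gapdh*, and a few members were not level. *Slc39a1*, a zinc importer of the plasma membrane, had 98.2, 96.4, 98.4, 93.98, 95.1 and 66.98 FPKM and was lowest in P6. *Slc39a7*, which releases zinc from the endoplasmic reticulum, had 60.01, 62.3, 57.9, 58.8, 56.5 and 69.3 FPKM, and *Slc30a5*, which loads zinc into the secretory pathway, had 20.8, 27.7, 25.99, 20.2, 21.5 and 24.8 FPKM. These most abundant genes of the class stayed within 1.5 times between libraries. *Slc39a4*, a zinc importer best known from the intestine, had 0.0924, 0.144, 0.0651, 0.741, 0.759 and 7.25 FPKM and was at least 9.55 times higher in P6 than in any other library, or 4.69 times with a pseudocount of 1, the other libraries being below 1 FPKM. *Slc39a8*, an importer of zinc and manganese, had 2.20, 2.69, 2.71, 2.31, 2.99 and 9.61 FPKM, with P6 at least 3.22 times the rest. *Slc30a4*, a vesicular zinc carrier, had 7.99, 8.16, 7.52, 8.23, 7.95 and 8.53 FPKM and was among the 10 flattest members.

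*Slc30a1*, the exporter that lowers cellular zinc, was singled out after its values were seen, since it and the metallothionein genes are textbook targets of the same zinc-sensing factor. It had 4.11, 5.03, 6.55, 7.93, 9.81 and 9.06 FPKM in P1 to P6, lowest in P1. *Mt1*, which encodes a metallothionein, had 1404, 1176, 1332, 779, 664 and 568 FPKM, and *Mt2* had 1605, 1156, 1184, 744, 529 and 612 FPKM. Both metallothionein genes were highest in P1, where *Slc30a1* was lowest. The 15 genes of zinc, copper and iron handling summed to 8527, 7201, 7774, 6631, 6871 and 4474 FPKM with *Fth1* the most abundant and *Mt3* at 0 in all 6, and 3 of 15 (*Cp*, *Steap3* and *Atp7b*) were at least 2 times lower in P6 than in every other library, against 4.45% of all genes with at least 5 FPKM, though *Atp7b* was below 0.1 FPKM throughout and listed at 0 in P6. The 300 bases around the starts of *Slc30a1* (chr1:191906531-191906830) and *Mt1* (chr8:94178839-94179138), both on the plus strand of GRCm38.p6 and from RefSeq, are shown to set those letters side by side. With capitals as above, *Slc30a1* held 1 match of TGCACNC and *Mt1* 2, and of the open form TGCNCNC 2 and 3.
Slc30a1: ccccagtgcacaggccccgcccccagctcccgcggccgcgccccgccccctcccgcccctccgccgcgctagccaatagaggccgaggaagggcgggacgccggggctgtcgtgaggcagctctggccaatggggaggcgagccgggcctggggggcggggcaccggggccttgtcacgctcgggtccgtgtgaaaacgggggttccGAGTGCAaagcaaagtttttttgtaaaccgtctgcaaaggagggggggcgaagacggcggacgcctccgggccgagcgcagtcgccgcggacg
Mt1: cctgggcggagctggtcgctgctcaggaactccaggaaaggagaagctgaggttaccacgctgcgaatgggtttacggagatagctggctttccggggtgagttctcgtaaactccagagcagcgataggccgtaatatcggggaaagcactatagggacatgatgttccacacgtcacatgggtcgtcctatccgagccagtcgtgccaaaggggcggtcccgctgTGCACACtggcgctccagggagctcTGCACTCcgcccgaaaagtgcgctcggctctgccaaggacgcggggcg

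Among carriers of vitamins, nucleosides, choline and heme, *Slc29a1*, which encodes the equilibrative nucleoside carrier ENT1, had 148, 155, 136, 83.4, 69.5 and 24.7 FPKM. It was higher in P1, P2 and P3 than in P4 and P5, and P6 was 2.81 times below P5. *Slc44a1*, a choline carrier, had 52.9, 47.3, 39.9, 62.9, 52.9 and 36.2 FPKM and was highest in P4. *Slc48a1*, which moves heme out of lysosomes, had 25.9, 24.2, 24.1, 42.2, 42.99 and 68.5 FPKM and was highest in P6. *Slc29a1* and *Slc48a1* thus ran in opposite directions between the CD105+ libraries and P6.

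Of the 16 inorganic ion carriers, 8 had a ratio under 1.5, much like the 46.9% of all genes. *Slc12a4*, a potassium and chloride cotransporter, had 34.2, 35.7, 35.2, 39.1, 39.3 and 38.7 FPKM, a ratio of 1.15. *Slc4a2*, an exchanger of chloride and bicarbonate, had 22.6, 20.2, 19.5, 28.99, 26.9 and 33.95 FPKM and was highest in P6. Further members among the 10 flattest were *Slc9a8*, an endosomal sodium and proton exchanger, with 5.68 to 6.42 FPKM, *Slc12a9* with 4.81 to 5.44 and *Slc20a2*, a phosphate importer, with 5.98 to 7.03.

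Glucose carriers of family SLC2 were low, and the highest value among them, noted after the values were seen, was 10.1 FPKM, for *Slc2a1* (GLUT1) in P3. The most abundant gene of the sugar class was *Slc50a1*, a sugar carrier of the SWEET type, with 34.98, 39.05, 38.8, 32.3, 29.8 and 33.9 FPKM. *Slc45a3*, a sugar carrier known from prostate, had 3.70, 8.12, 13.8, 10.8, 20.4 and 10.8 FPKM and was higher at low than at intermediate ALDH in both CD105+ and CD105- cells. *Slc37a3*, an intracellular carrier related to sugar phosphate exchangers, had 13.4, 15.1, 14.2, 15.2, 16.6 and 17.1 FPKM. *Slc2a3* (GLUT3), a high-affinity glucose carrier, had 1.76, 4.33, 5.06, 2.43, 4.58 and 4.87 FPKM, with P2 2.46 times P1.

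Of the carriers in the Golgi, endoplasmic reticulum and lysosome, *Slc35a5*, a nucleotide sugar carrier, had 8.84, 10.2, 12.02, 18.5, 21.9 and 22.7 FPKM, lowest in P1 and highest in P6. *Slc35a1*, which brings CMP-sialic acid into the Golgi, had 17.5, 15.7, 17.5, 19.3, 21.3 and 17.2 FPKM. *Slc35a4*, a relative, had 19.4, 18.9, 19.04, 20.9, 19.9 and 18.6 FPKM, and *Slc35a2*, the carrier of UDP-galactose, had 14.4, 13.5, 12.4, 14.2, 13.2 and 14.6 FPKM. The last pair were among the 10 flattest members, with ratios of 1.12 and 1.17.

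Among carriers of fatty acids and sterols, *Slc10a6*, which takes up sulfated steroids, had 39.7, 40.4, 52.7, 29.6, 34.3 and 52.4 FPKM. *Slc27a1*, a fatty acid transport protein, had 8.36, 17.6, 22.3, 19.3, 27.3 and 33.8 FPKM, lowest in P1 and highest in P6. *Slc27a3*, an acyl-CoA synthetase of the same family, had 2.72, 5.18, 3.36, 2.53, 2.02 and 15.6 FPKM, with P6 at least 3.01 times the rest. The 7 other genes of fatty acid uptake and activation summed to 232, 202, 327, 450, 623 and 319 FPKM with *Fabp4* the most abundant, and 1 of 7 was at least 2 times higher in P6 than in every other library, against 4.63% of all genes with at least 5 FPKM. *Slc27a1* in P6 was less than 1.5 times P5, so of these members only *Slc27a3* passed the rule for P6, where the adipocyte genes given above were also high, and their part in it was not tested.

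Carriers of organic ions and peptides included a pair of related genes on the same stretch of chromosome 11, 91.3 kb apart. *Slc22a4*, which imports ergothioneine, had 9.81, 15.2, 12.3, 4.67, 2.90 and 3.74 FPKM and was highest in the CD105+ libraries. *Slc22a5*, the carnitine carrier, had 13.7, 15.8, 16.1, 18.6, 20.6 and 23.6 FPKM and climbed from P1 to P6, against the order of its neighbor, although its difference between CD105+ and CD105- cells was small enough to turn on division by *Gapdh*. Both windows of 300 bases, at chr11:54028055-54028354 and chr11:53891654-53891953 on the minus strand, are shown because neighbors of like sequence differed in order, and capitals are as above. *Slc22a4* held 4 matches of TGCACNC and *Slc22a5* none, with 29 and 34 CpG.
Slc22a4: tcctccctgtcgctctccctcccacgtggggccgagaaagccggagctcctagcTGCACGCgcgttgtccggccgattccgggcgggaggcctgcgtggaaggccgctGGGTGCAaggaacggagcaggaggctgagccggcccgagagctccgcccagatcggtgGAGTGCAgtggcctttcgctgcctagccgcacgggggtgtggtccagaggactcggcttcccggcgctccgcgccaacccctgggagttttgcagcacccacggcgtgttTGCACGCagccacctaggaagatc
Slc22a5: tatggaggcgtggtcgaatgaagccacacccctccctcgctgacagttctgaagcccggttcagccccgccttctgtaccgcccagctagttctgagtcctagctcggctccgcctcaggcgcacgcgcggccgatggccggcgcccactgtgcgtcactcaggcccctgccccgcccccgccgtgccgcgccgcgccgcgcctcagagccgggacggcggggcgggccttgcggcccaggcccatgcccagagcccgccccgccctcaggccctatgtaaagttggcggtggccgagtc

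*Slc22a17*, a receptor for lipocalin-2, had 12.6, 16.97, 15.6, 11.4, 10.4 and 12.5 FPKM and a ratio of 1.63 between P2 and P5. *Slc15a3*, a lysosomal carrier of histidine and dipeptides that is prominent in immune cells, had 2.05, 5.28, 7.94, 1.44, 2.61 and 0.0630 FPKM. With P3 at 126 times P6, it had the widest ratio of all members for which a ratio can be given, but this rested on a P6 value near 0, and with a pseudocount of 1 the smallest of its ratios to P6 fell from 22.8 to 2.30. All 10 myeloid genes, among them *Lyz2* with 14.4, 21.98, 22.996, 11.1, 7.74 and 26.6 FPKM, were also lower in P1 than in P2 and P3. In P6 4 of them were highest and none was lowest, although *Fcer1g*, with 2.17, 3.23, 4.91, 1.46, 0.958 and 1.13 FPKM, was lower there than in P1 to P4, and their part in the *Slc15a3* values was not tested. An exon of *Slc15a3* shares up to 1529 bases with *Tmem132a* on the opposite strand, which had 6.77, 7.31, 9.01, 5.71, 6.31 and 6.99 FPKM.

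Of the 4 symbols that only resemble carriers, *Slc9a3r1* and *Slc9a3r2* encode scaffold proteins that bind sodium and proton exchangers and other membrane proteins. *Slc9a3r1* had 9.35, 22.2, 42.2, 142, 162 and 250 FPKM, higher at each step from P1 to P6 and 26.7 times higher in P6 than in P1. *Slc9a3r2* had 19.4, 31.8, 34.03, 33.1, 39.5 and 15.8 FPKM and was lowest in P6. *Slc7a6os*, whose name refers to the strand opposite *Slc7a6*, had 14.05, 15.9, 19.6, 16.6, 19.7 and 24.03 FPKM. Most of the sum of this group in P4, P5 and P6 was *Slc9a3r1*, which like the mesothelial markers was higher in P4 and P5 than in P1, P2 and P3 and highest in P6, and the part of mesothelial cells in it was not tested.

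The populations were then compared by counting members past 2 times in every pair of a contrast. In P6, 7 of the 141 members (4.96%) were at least 2 times higher than in each of P1 to P5, against 4.63% of all 9790 genes. They were *Slc38a11*, *Slc39a4*, *Slc16a1*, *Slc39a8*, *Slc27a3*, *Slc38a1* and *Slc7a1*, the last of which fell below 2 with a pseudocount of 1. Of these *Slc38a11*, *Slc39a4* and *Slc39a8* reached 5 FPKM in P6 only, as did 253 of the 453 genes of any kind counted, and among genes that reach it in P1 to P5 the shares were 2.96% of members and 2.15% of all. Lower in P6 by at least 2 times against each of P1 to P5 were 5 members (3.55%), against 4.45% of all genes, among them *Slc15a3*, *Slc7a8*, *Slc25a45* and *Slc29a1*. In P1 to P5 only, 3 of these 5 reached 5 FPKM, as did 303 of the 436 genes of any kind counted. Among genes that reach it in P6 the shares were 1.79% of members and 1.51% of all. The shares higher and lower in P6 lay close to those of all genes, so by these counts P6 did not set the members apart as a list. Of the marker lists, 10 of 11 mesothelial, 6 of 10 adipocyte, 4 of 10 endothelial, 3 of 8 mural and 2 of 10 myeloid genes were higher in P6 by the same rule, and 4 of 10 fibroblast and 1 of 8 mural genes were lower, and their part in the counts was not tested. These lists had no minimum FPKM. Of the listed genes that reach 5 FPKM, only 5 adipocyte, 2 endothelial and 1 mural genes were higher, the other counts being the same. Against P1, P2 and P3 only, a comparison chosen after seeing the data, 16 were higher and 15 lower (11.3% and 10.6%, against 9.97% and 7.39% of all genes), and against P4 and P5 only 8 and 8 (5.67% each, against 5.32% and 5.76%).

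Across CD105, 6 members (4.26%) were at least 2 times higher in CD105+ than in CD105- cells at both ALDH levels, against 3.08% of all genes. Among them were *Slc22a4*, *Slc15a3*, *Slc7a10*, *Slc36a2* and *Slc43a1*, of which *Slc36a2* fell below 2 with a pseudocount of 1. *Slc15a3* reached 5 FPKM in CD105+ cells only, and among genes that reach it elsewhere the shares were 3.70% of members and 2.48% of all. In the other direction there were 9 members (6.38%), against 6.15% of all genes. They were *Slc16a4*, *Slc38a11*, *Slc6a4*, *Slc39a4*, *Slc7a4*, *Slc38a1*, *Slc9a3r1*, *Slc16a1* and *Slc6a6*. With a pseudocount of 1 *Slc38a11*, *Slc39a4* and *Slc6a6* fell below 2, as did *Slc16a1* and *Slc6a6* after division by *Gapdh* and *Slc6a6* under the median of ratios. At 2 times the shares as deposited were again near those of all genes, but at 1.5 times 20 members (14.2%) were higher in CD105+ cells, against 6.56% of all genes, and 17 (12.1%) were lower, against 10.6%. Of the 20, 3 reached 5 FPKM in CD105+ cells only, and among genes that reach it elsewhere the shares were 12.6% of members and 5.85% of all. At 2 times 10 of 11 mesothelial, 19 of 21 acinar, 2 of 10 endothelial and 2 of 8 mural genes were lower in CD105+ cells, and 6 of 10 endothelial, 4 of 10 adipocyte, 4 of 10 myeloid, 2 of 10 fibroblast, 2 of 8 lymphoid and 2 of 8 mural genes were higher, and their part in these counts was not tested. The lists had no minimum FPKM, and none of the endothelial, myeloid and lymphoid genes counted as higher reached 5 FPKM. Division by *Gapdh* turned the balance from 40% to 77.4% higher among the members counted, with 24 (17.02%) higher and 7 (4.96%) lower in CD105+ cells, against 7.34% and 3.56% of all genes. It moved the log2 ratio of every gene by 0.47 for P2 over P4 and by 0.54 for P3 over P5, so that a member up to 1.39 and 1.46 times lower in CD105+ cells in these pairs came out higher. For P6 over P1 the shift was -0.24 under the median of ratios and -0.34 after division by *Gapdh*, which also gave shifts of 0.27 for P6 over P5 and 0.11 for P4 over P5.

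**Figure D5:**
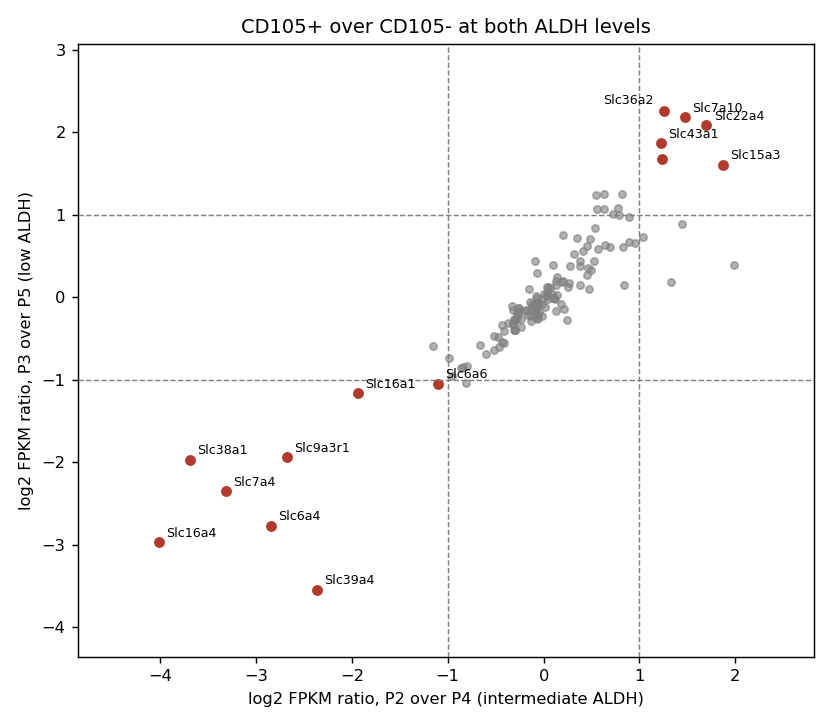
Each point is a member above 0 in all libraries, by its log2 FPKM ratio of CD105+ over CD105- cells at intermediate ALDH (P2 over P4, horizontal) and at low ALDH (P3 over P5, vertical); dashed lines mark a ratio of 2 in either direction, and colored points pass it in both. The 6 colored at the upper right and 8 at the lower left are the members counted in the text, *Slc38a11*, listed at 0 in P2, being left out, and with division by *Gapdh* the balance turns to 24 higher and 7 lower.

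ALDH activity was compared within CD105+ cells (P2 and P3) and within CD105- cells (P4 and P5). No member was at least 2 times higher at intermediate than at low ALDH in both, against 0.623% of all genes, and none was lower, against 0.480%. At 1.5 times none was higher, against 1.47% of all genes, and 5 (3.55%) were lower, against 1.80%. These were *Slc45a3*, *Slc43a2*, *Slc38a1*, *Slc15a3* and, named after its values were seen, *Slc46a1*, a folate carrier with 2.07, 2.68, 4.24, 3.83, 6.61 and 3.06 FPKM, which reached 5 FPKM in P5 only. Few members thus passed either ratio between these gates. Of the marker lists, 20 of 21 acinar, 3 of 11 mesothelial and 2 of 8 lymphoid genes were at least 2 times higher at intermediate ALDH in both, and 1 of 10 endothelial genes was lower, and their part was not tested. These lists had no minimum FPKM, and neither the lymphoid genes nor the endothelial gene counted reached 5 FPKM.

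Between P1 and P2, which differ in the height of ALDH activity, members past 2 times were lower in P1, as were most genes of any kind past it, of which 17.1% were higher in P1. No member was at least 2 times higher in P1, against 0.950% of all genes, and at 1.5 times 2 members (1.42%) were, against 2.82%. These were *Slc36a2* and, named after its values were seen, *Slc10a3*, a relative of bile acid carriers, with 6.53, 4.32, 4.26, 4.52, 3.47 and 4.38 FPKM, and both reached 5 FPKM in P1 only, as did 36 of the 276 genes of any kind. In contrast 9 members (6.38%) were at least 2 times lower in P1 than in P2, against 4.61% of all genes. They were *Slc7a2*, *Slc7a5*, *Slc1a3*, *Slc15a3*, *Slc2a3*, *Slc43a2*, *Slc9a3r1*, *Slc45a3* and *Slc27a1*. With a pseudocount of 1 the last gene and *Slc2a3*, *Slc43a2* and *Slc45a3* fell below 2, leaving 5, and *Slc27a1* also did under the median of ratios. Of the 9, *Slc7a5* reached 5 FPKM in P2 only, and among genes that reach it elsewhere the shares were 5.76% of members and 4.38% of all. At 1.5 times 20 members (14.2%) were lower in P1, against 7.96% of all genes. All 21 acinar genes were at least 2 times lower in P1 than in P2 as well, as were 4 of 10 endothelial, 3 of 8 mural, 3 of 8 lymphoid, 2 of 11 mesothelial and 1 of 10 myeloid genes. At least 2 times higher in P1 were 2 of 10 fibroblast genes, *Col3a1* with its 0 in P2 among them, 2 of 10 adipocyte, 2 of 5 erythroid and 1 of 10 endothelial genes, and the part of all these in the counts was not tested. These lists had no minimum FPKM. Of the listed genes that reach 5 FPKM, 20 acinar, 1 endothelial and no lymphoid genes were lower in P1. Likewise 1 adipocyte and 1 erythroid gene were higher, the other counts being the same. Against P3 in place of P2, a comparison chosen after seeing the data, 17 members (12.1%) were lower in P1, all 9 among them, against 7.54% of all genes.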

How the data were processed

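RNA-seq of 6 sorted omental stromal populations was analyzed, with 1 library each. The authors deposited FPKM values from single-end reads; the submitters' processing notes name TopHat2 2.0.7, Cufflinks 2.1.1 and the mm10 build, with no role or order. Annotation and filters were not given in the sources used here. Values were used without further scaling. The FPKM of repeated symbols was added up, giving 23352 genes.

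Members and gene lists were chosen with earlier results of these data known. Substrate classes followed the family number. Ratios used no pseudocount. A member was counted when its ratio reached 2 in every pair of a contrast, and the same count was made over the 9790 genes with at least 5 FPKM in at least 1 library. No test was run. Genes named were the 3 most abundant members of each class, the 6 with the largest ratio in each count, the 10 with the widest and the 10 with the narrowest range, the 3 nearest the limit on either side, and the genes of the fixed lists; others are said to be named after their values were seen. Some genes that this rule takes are not reported here. Alternatives for the minimum, the pseudocount, the scaling, the ratio and repeated symbols, which no member had, were tried, and those added after seeing the data are named as such.

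Depth was estimated from low FPKM values that correspond to 1 read in genes with a single GENCODE M21 transcript of at least 800 nt, with a fragment length of 200 nt assumed. The method was settled with an earlier estimate from these data known, and gave 53.4, 61.7, 60.7, 58.6, 61.8 and 37.0 M reads in P1 to P6, so 5 FPKM stood for 185 reads per kb in P6 and 309 in P5. Promoters were taken from RefSeq (GRCm38.p6), in which 108 of the 141 members were matched by symbol. Computation used Python 3.11.15, numpy 2.4.6, pandas 2.3.3 and matplotlib 3.10.9, and the counting was tested on simulated data.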

Additional observations from a re-analysis of the deposited data

Results flagged for a closer look

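Of the 55 members taken by the rule for named genes and reported, 16 ran in opposite directions with ALDH in CD105+ and in CD105- cells, most of them by little. The FPKM ratios of intermediate over low ALDH, in CD105+ and then in CD105- cells, were 1.01 and 0.995 for *Slc12a4*, 0.939 and 1.01 for *Slc12a9*, 0.769 and 1.32 for *Slc16a1*, 0.918 and 1.18 for *Slc1a5*, 1.05 and 0.966 for *Slc20a2*, 1.08 and 0.974 for *Slc25a32*, 0.833 and 1.28 for *Slc25a45*, 1.07 and 0.939 for *Slc30a5*, 0.993 and 1.05 for *Slc35a4*, 0.909 and 1.82 for *Slc36a2*, 1.07 and 0.916 for *Slc37a3*, 2.21 and 0.977 for *Slc39a4*, 1.004 and 0.982 for *Slc48a1*, 0.973 and 1.03 for *Slc6a4*, 1.38 and 0.941 for *Slc7a5* and 1.07 and 0.974 for *Slc9a8*. The furthest apart were *Slc39a4*, which was below 1 FPKM in all 4 libraries, and *Slc36a2*. The differences were not tested, and each population had 1 library.

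Across CD105, 5 of the 55 ran in opposite directions at intermediate and at low ALDH. The FPKM ratios of CD105+ over CD105- cells, at intermediate and then at low ALDH, were 0.944 and 1.01 for *Slc12a9*, 1.09 and 0.984 for *Slc25a32*, 1.16 and 0.907 for *Slc39a8*, 1.10 and 0.894 for *Slc3a2* and 1.18 and 0.828 for *Slc7a8*. The differences were not tested. No summed class ran in opposite directions in either comparison as deposited.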

How the results depend on the processing

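Under 8 alternatives, 21 of 40 values for the 5 counts above 0 stayed within 1.5 times of the count given above, and 19 of 24 for the 3 counts of 0 stayed at 0. The highest row of a repeated symbol was left out of these tallies, since no member had a repeated symbol and none could move. Scaling by the common sum and by the median of ratios moved no count by more. With no minimum on FPKM, the counts over 306 symbols were 34 higher and 26 lower in P6 (11.1% and 8.50%, against 8.78% and 7.02% of all 18515 genes above 0), 28 and 29 in CD105+ cells (9.15% and 9.48%, against 7.25% and 6.67%), 4 and 13 at intermediate ALDH (1.31% and 4.25%, against 2.08% and 2.78%), and 18 and 53 in P1 against P2 (5.88% and 17.3%, against 5.26% and 13.9%). With at least 10 FPKM, over 88 members and 7239 genes, they were 4 and 3 in P6 (4.55% and 3.41%, against 4.16% and 4.61%), 3 and 5 in CD105+ cells (3.41% and 5.68%, against 2.98% and 6.52%), and 5 lower in P1 (5.68%, against 4.38%). With a pseudocount of 1, 5 members were lower in P1 than in P2 (3.55%, against 2.91%). Division by *Gapdh* gave 24 members higher in CD105+ cells (17.02%, against 7.34%). At 1.5 times there were 11 and 11 in P6 (7.80% each, against 8.38% and 6.95%), 20 and 17 in CD105+ cells (14.2% and 12.1%, against 6.56% and 10.6%), 5 lower at intermediate ALDH (3.55%, against 1.80%), and 2 higher and 20 lower in P1 (1.42% and 14.2%, against 2.82% and 7.96%). At 3 times there were 2 higher in CD105+ cells (1.42%, against 1.14%) and 3 lower in P1 (2.13%, against 2.48%).

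Comparisons chosen after seeing the data changed the populations. P6 against P1 to P3 only gave 16 higher and 15 lower, and against P4 and P5 only 8 lower, against 9.97%, 7.39% and 5.76% of all genes. At intermediate ALDH only, 10 (7.09%) were higher in CD105+ cells, and at low ALDH only 13 (9.22%), against 3.86% and 6.51% of all genes. Within CD105+ cells 1 was higher and 5 lower at intermediate ALDH, and within CD105- cells 1 and 2, against 1.10%, 3.003%, 3.91% and 1.31% of all genes. P1 against P3 gave 17 lower, against 7.54%. The causes were not tested.

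Of 144 ratios of single members recomputed, 130 stayed at 2 or more, 14 fell below 2, and none reversed. With a pseudocount of 1, 12 of 36 became lower by more than 1.5 times and 10 fell below 2, namely *Slc7a1* and *Slc25a45* in P6, *Slc36a2*, *Slc38a11*, *Slc39a4* and *Slc6a6* across CD105, and *Slc27a1*, *Slc2a3*, *Slc43a2* and *Slc45a3* in P1. Scaling put *Slc16a1* (*Gapdh*), *Slc6a6* (*Gapdh* and median of ratios) and *Slc27a1* (median of ratios) below 2. After division by *Gapdh* the 10 flattest members had ratios of 1.36 to 1.65, and after the other scalings at most 1.30. The summed FPKM of a class in P6 over the mean of P1 to P5, and in P2 and P3 over P4 and P5, was rescaled in comparisons also chosen after seeing the data, and ratios near 1 reversed. With the common sum the P6 ratio became 1.01 for metal ions and 1.03 for mitochondrial carriers. With the median of ratios it became 0.980 for inorganic ions and 0.941 for sugars, and the CD105 ratio became 1.01 for inorganic ions and 1.02 for mitochondrial carriers. Division by *Gapdh* gave a P6 ratio of 0.984 for inorganic ions and 0.940 for sugars, and a CD105 ratio of 1.17 for Golgi, endoplasmic reticulum and lysosome carriers, 1.36 for inorganic ions and 1.38 for mitochondrial carriers. No paired analysis was possible because a single library stood for each population.

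Exons of 44 of the 140 members found in GENCODE M21 overlap another gene, 38 of them on the opposite strand, and the use of strand in counting was not given in the sources used here, so reads of such pairs cannot be told apart. *Slc7a4* overlaps *P2rx6*, with 1.26, 1.77, 3.04, 5.20, 6.95 and 15.7 FPKM in P1 to P6, and *Slc7a10* overlaps *Lrp3*, with 55.4, 45.3, 40.6, 28.3, 18.4 and 13.2 FPKM. Carriers with near-identical copies, such as the ADP/ATP exchangers, may share reads.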

Other observations

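Carriers whose names fall outside the pattern were measured as well. Of 41 symbols of the SLC families with another letter, or of the organic anion carriers named Slco, 16 reached 5 FPKM in at least 1 library, 12 of the former and 4 of the latter. The genes named here were chosen from the fixed list or after their values were seen. *Slco2b1*, a carrier of steroid sulfates and other organic anions, had 31.4, 31.8, 31.3, 11.7, 6.97 and 1.61 FPKM in P1 to P6 and was 19.8 times higher in P2 than in P6. *Slco1a4*, a related carrier, had 2.74, 5.80, 4.86, 1.01, 1.01 and 0.142 FPKM, with the highest values in the CD105+ libraries as well. *Slco3a1* had 31.2, 23.6, 23.2, 24.7, 26.3 and 11.3 FPKM, and *Slco2a1*, the prostaglandin carrier, had 8.70, 12.5, 11.6, 10.8, 11.5 and 11.6 FPKM. The 7 listed Slco genes of the fixed list summed to 74.2, 73.8, 71.1, 48.3, 46.02 and 24.9 FPKM, and 4 of 7 were at least 2 times lower in P6 than in every other library, against 4.45% of all genes with at least 5 FPKM. Of the 4, *Slco1c1* was below 0.1 FPKM throughout and listed at 0 in P6, and of the 4 Slco genes that reach 5 FPKM 3 were lower.

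The 12 genes of another letter, mostly of family SLC35, had a ratio of the highest to the lowest library of at most 1.62. *Slc35b1*, which supplies ATP to the endoplasmic reticulum, had 27.4, 23.99, 23.1, 23.8, 22.9 and 21.5 FPKM. *Slc35f5* had 27.7, 24.4, 22.9, 23.1, 20.3 and 18.3 FPKM, highest in P1 and lowest in P6.

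Just below the limit of 5 FPKM, *Slc16a13* and *Slc9a7* were lowest in P1 and highest in P6, as *Slc16a1* was. The former had 0.177, 0.195, 0.693, 1.97, 2.28 and 4.69 FPKM in P1 to P6. The latter, an organellar sodium and proton exchanger, had 0.0990, 0.243, 0.741, 3.41, 3.79 and 4.90 FPKM. *Slc4a7*, also just below it, had 2.34, 2.78, 3.71, 3.81, 4.64 and 2.63 FPKM and was highest in P5.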
